A study of Arabidopsis thaliana with 14 samples.

Results

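Total RNA of Arabidopsis seedlings at 7 dpg was hybridised to 14 whole-genome arrays of 1 colour. The genes described here were lower with a form of YODA that lacks its N-terminal part (NdelYDA) than in Ler seedlings and higher in yda seedlings than in C24 seedlings. They were chosen from group means of log2(intensity + 16): NdelYDA minus Ler had to be -0.7 or less, yda minus C24 0.7 or more, and the mean intensity at least 100 in 1 group. Of 22746 probe sets that are not array controls, 53 met these values. Leaving out SPCH, FMA, CHX20, AT1G22690, AT4G14480, AT1G33811 and AT1G75880, which also met them, left 46 members. A single gene was given by the probe table for 27 of the 46, several genes for 1, and none for 18. The choice used both mutant comparisons and all 14 arrays, so the members' levels and differences are a description and carry no test.

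The groups were yda (4 arrays), whose labels give neither allele nor ecotype, NdelYDA (4 arrays), C24 controls from line CS9159 (3 arrays) and controls of the Ler ecotype (3 arrays). The NB89 designation stands in the labels of 3 NdelYDA samples. The Ler ecotype and the absence of stomata are each stated for 2 of the 4, replicates 1 and 4. What drives the deletion form is not given in the sources used here, and pairing yda with C24 was read from the design. Mutant samples are called biological replicates in the labels, while control samples carry only a number.

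Stomata are pores in the leaf epidermis, each between a pair of guard cells, that let carbon dioxide in and water vapour out. Guard cells arise from a lineage of dividing epidermal cells that bHLH transcription factors start and carry through. YODA is a MAP kinase kinase kinase that restrains this lineage. Loss of YODA gives too many, clustered stomata, and removing its N-terminal part makes it constantly active, so that stomata are missing. A transcript made only in the stomatal lineage or in guard cells, at an unchanged level per cell, would thus be low in NdelYDA and high in yda. This is the pattern the rule asks for. Whole seedlings were used, so fewer cells of a type and less RNA per cell cannot be told apart.

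Array medians ran from 203 to 226 and the 30th percentiles from 75.1 to 85.75; 26 of the 46 members had a mean in NdelYDA below every NdelYDA 30th percentile, a low signal at which the size of a log2 difference depends on the pseudocount. With 64 added in place of 16, AT2G34700, PR-1-LIKE, AT3G15800, AT3G19430, AT1G34510, AT3G13950, AT3G45530, AT4G17240, ATC, AT2G39690 and AT1G54020, 11 of the 27 named members, no longer met the rule. C24 replicate 1 stood apart from the other C24 arrays. Its GAPDH 3′ to 5′ signal ratio, an index of RNA integrity, was 1.46, against 1.02 and 1.12 in the others. The ratio was 1.05 to 1.11 in Ler, 0.992 to 1.21 in NdelYDA and 0.789 to 0.945 in yda. Every yda array was thus below every other array in this ratio. The yda medians (202.9 to 210.8) were also below those of all other arrays (214.55 or more). The part of this in the yda differences was not tested. Without C24 replicate 1, 34 of the 46 members still met the rule, and among named members AT1G50060, AT3G15800, AT4G25260, AT3G19430, AT1G34510, AT3G45530, AT4G26010 and ATC did not. With each of the 14 arrays left out in turn, 27 members met the rule every time, 14 of them named. AT1G21540 was lost without yda replicate 1, AT4G26010 and ATC also without yda replicate 4, AT3G45530 without Ler replicate 2, AT3G13950 without C24 replicate 3 or yda replicate 2, AT1G54020 without Ler replicate 2 or NdelYDA replicate 4, AT2G39690 without any of 3 arrays and AT4G17240 without any of 5.

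Members fell by a median of 1.25 from Ler to NdelYDA and their median rise from C24 to yda was 1.06, from 0.72 to 2.62, on the log2(intensity + 16) scale that chose them. The medians over all probe sets were -0.01 and -0.01. The rule was met by 0.233% of all probe sets. Arrays of mutant and control did not overlap in both comparisons for 39 of the 46, against 2.34% of all probe sets. Both values follow from the choice. Just inside the thresholds lay AT1G54020 (NdelYDA minus Ler -0.7) and ATC (yda minus C24 0.72); just outside lay AT5G18430 (-0.69 and 1.98) and MSRB9 (-0.98 and 0.69). At the floor, the highest group mean was 105 for the dimmest member and 98.1 for the brightest probe set left out.

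**Figure D1:**
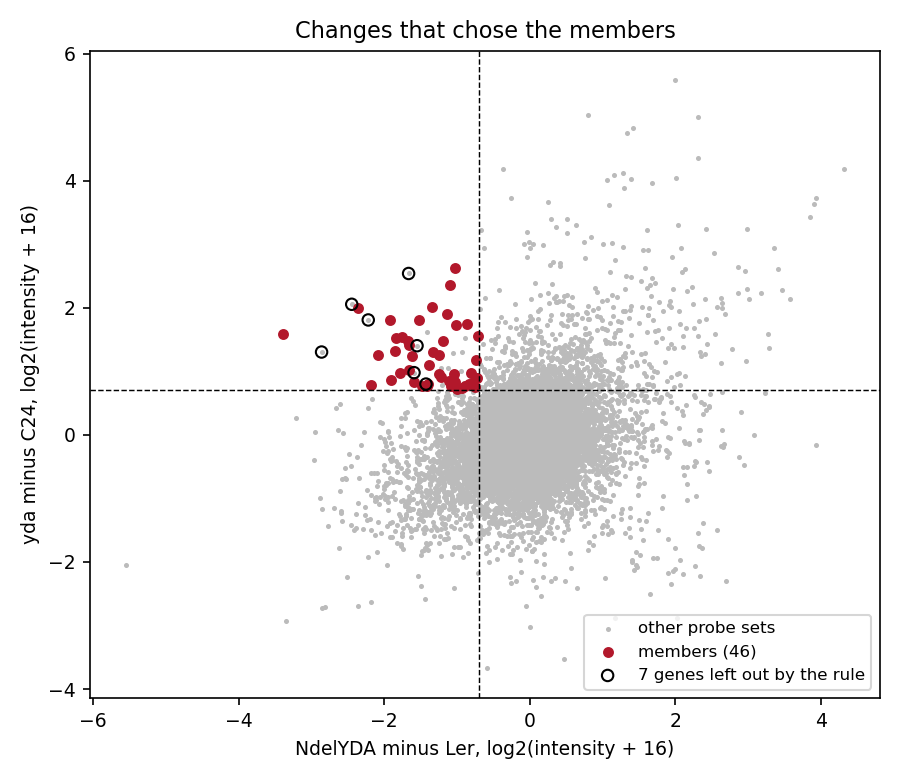
Change of each probe set between NdelYDA and Ler (x axis) and between yda and C24 (y axis), as differences of group means of log2(intensity + 16). Dashed lines mark -0.7 and 0.7. The 46 members fill the upper left corner by choice, with the 7 genes left out by the rule as open circles among them.

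None of the 27 named members is in the lists of 28 stomatal lineage and 28 guard cell genes used here, of which the probe table named 6 each. This follows from the choice, since the list genes that met the rule were left out. They are SPCH, FMA, CHX20, AT1G22690 and AT4G14480. The members are called by their rule and not as stomatal genes. The 7 genes left out hold the known ones. SPCH, which starts the lineage, and FMA (FAMA), which sets guard cell fate, met the rule, as did CHX20, a cation exchanger of guard cells. FMA had means of 85.1 in NdelYDA, 187 in C24, 254 in Ler and 332 in yda, so the mutants lay on opposite sides of both controls. SPCH had means of 32.2 in NdelYDA, 26.7 in C24, 122 in Ler and 95.1 in yda, and CHX20 17.75, 8.6, 137 and 70.9. In both, C24 had the lowest mean and Ler the highest, with the mutants between them. The NdelYDA and C24 arrays overlapped, at 20 to 50.9 and 15.5 to 41 for SPCH and 5.1 to 38.3 and 4.3 to 11.5 for CHX20. All were below every array's 30th percentile, so the order of these 2 groups cannot be told. For SPCH the yda arrays (75 to 125.2) also overlapped Ler (103.4 to 139.7).

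Each mutant was also set against the other control. Since C24 and Ler are different ecotypes, these differences hold the ecotype difference too, and since the mutant arrays are those the rule used, they are a description. Both exchanged differences move from the first ones by the same amount, Ler minus C24. Where C24 is above Ler, both become larger than the differences that chose the member. The 11 members with C24 above Ler thus had to meet both exchanged thresholds and are among those counted next. Of the 46 members, 20 met both thresholds with either control: NdelYDA minus C24 was -0.92 or lower and yda minus Ler from 0.76 to 3.6 among them. The exchanged thresholds were met by 2.36% of all probe sets (537), of which 23 also met the rule, 3 of them left-out genes. A C24 level above Ler helps a probe set meet the exchanged thresholds, so this share is not a background rate for the 20. Among the 20, 12 are named, and 18 had no overlap between either mutant and either control, against 26 of all 46 members and 1.01% of all probe sets. For 5 members the NdelYDA threshold alone was met, for 8 the yda threshold alone, and for 8 neither. In 5 members both directions turned: AT1G11850, AT4G25260, AT3G13950 and 2 unnamed probe sets were higher in NdelYDA than in C24 and lower in yda than in Ler. For these, Ler minus C24 was 1.34 to 2.29, more than either change that chose them. Over all 46 the median of Ler minus C24 was 0.31, with Ler higher for 35, against a median of 0.04 over all probe sets; high Ler and low C24 levels help a probe set meet the rule. Genes with a known stomatal role differed here. SPCH met neither exchanged threshold (0.18 and -0.32), and the arrays of each mutant overlapped those of the other control. The guard cell gene AT1G22690 (-2.46 and 0.9) met both thresholds.

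**Figure D2:**
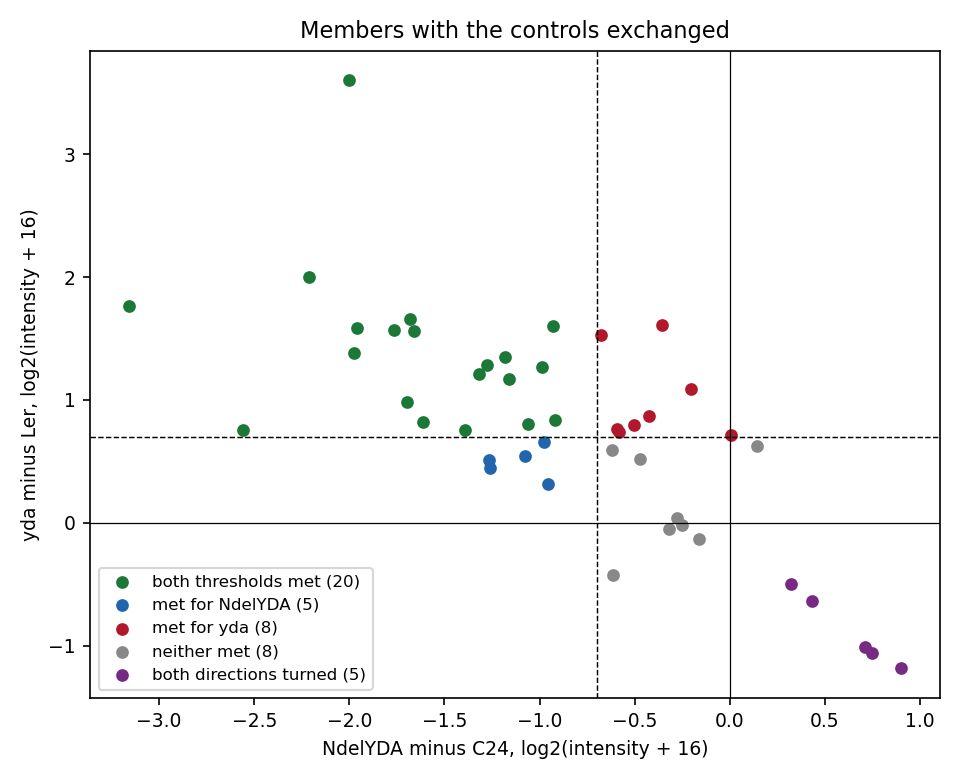
The 46 members with NdelYDA set against C24 (x axis) and yda against Ler (y axis), as differences of group means of log2(intensity + 16). Dashed lines mark -0.7 and 0.7. In the upper left lie the 20 members that met both thresholds, and in the lower right the 5 whose directions turned.

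Named members are described by role below. The family names of genes that carry only a locus tag come from general knowledge and not from the gene tables, and the grouping was made after the members were known, so it is not a test of any function. Values are intensities in order of replicate number, and differences are on the log2(intensity + 16) scale.

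By family name, 5 of the 27 named members were grouped as acting on the cell wall. The share of such families over all probe sets was not counted, and the action of these 5 on the wall was not tested. AT3G62820 is of the pectin methylesterase inhibitor family, whose proteins block the enzymes that remove methyl groups from wall pectin. Its intensities were 106.6, 124.6, 111.4 and 115.9 in NdelYDA, 508.8, 433.5 and 486.2 in Ler, 289.2, 461.7 and 462.3 in C24 and 1436.6, 1467.5, 1393.7 and 1436.8 in yda. All NdelYDA arrays lay below and all yda arrays above every control array, and the controls overlapped each other. The differences were -1.91 for NdelYDA minus Ler and 1.82 for yda minus C24, and -1.66 and 1.56 with the controls exchanged. AT2G34700, of the Ole e 1 allergen and extensin family of secreted wall proteins, had the largest rise in yda of the members, 2.62. Its intensities were 65.5, 24.3, 12 and 10.9 in NdelYDA, 80.7, 74.3 and 43.6 in Ler, 109.8, 146.5 and 179.7 in C24 and 928.2, 1004.0, 916.8 and 999.2 in yda. The yda arrays stood far above all others, while NdelYDA replicate 1 overlapped the Ler arrays. NdelYDA minus Ler was -1.02, and with exchanged controls the values were -2.0 and 3.6. EXPA16 encodes an expansin, a protein that loosens the wall during growth. It was at 65.1, 42, 83.8 and 64.9 in NdelYDA, 156.3, 166.4 and 147.4 in Ler, 60.8, 81 and 32.1 in C24 and 204.4, 248.1, 284.2 and 268.7 in yda. Here NdelYDA overlapped C24, so its difference from Ler (-1.14) was not matched against C24 (0.14), while yda was 1.9 above C24 and 0.62 above Ler. AT4G25260, a second gene of the pectin methylesterase inhibitor family, lay at 306.9 to 367.7 in NdelYDA, 614.0 to 732.7 in Ler, 211.6 to 327.1 in C24 and 440.7 to 530.1 in yda. Ler was the highest group and C24 the lowest, with both mutant means between them, and the exchanged differences were 0.32 for NdelYDA and -0.5 for yda. AT3G15800, of a glycosyl hydrolase family, was dim and scattered at 20 to 63 in NdelYDA, 81.1 to 177.9 in Ler, 19.9 to 113.3 in C24 and 29 to 163.7 in yda, and yda replicate 3 lay among the C24 arrays.

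Both peroxidases among the members, class III enzymes that cross-link or loosen walls with hydrogen peroxide, met the thresholds with either control. C24 lay above Ler for both, so this followed from the rule. AT4G26010 had intensities of 228.2, 268.6, 288.1 and 268.6 in NdelYDA, 447.8, 484.9 and 627.0 in Ler, 578.4, 1125.7 and 1235.2 in C24 and 1451.3, 1601.8, 1511.0 and 1696.2 in yda. NdelYDA was lowest and yda highest with no overlap, and all but 1 C24 array lay above the Ler arrays. Its differences were -0.93 and 0.74, and -1.77 and 1.57 with exchanged controls. For AT1G34510 the arrays read 3.5, 3.6, 3.9 and 4.8 in NdelYDA, 76.3, 53.3 and 101.0 in Ler, 105.8, 219.3 and 181.0 in C24 and 252.5, 329.6, 295.7 and 295.9 in yda. The NdelYDA signal was below 5 on each array, at the bottom of the scale, against at least 53.3 elsewhere. The size of its fall is thus set by the pseudocount: NdelYDA minus Ler was -2.19 with 16 added and -1.04 with 64. Its yda mean was 0.79 above C24 and 1.76 above Ler. C24 replicate 1 was the lowest C24 array for both, at 578.4 and 105.8, and without it neither reached 0.7 in yda minus C24. A marker of another cell type moved in the same direction in NdelYDA. EXPA7, an expansin of root hair cells and the only tested gene of 12 in the root list, was at 87.3 ± 10 in NdelYDA, 154 ± 29.8 in Ler, 159.9 ± 23.6 in yda and 124 ± 34.7 in C24 (SD, n = 4 for mutants and 3 for controls). It fell in NdelYDA by 0.71 (SE 0.17, limma adjusted p = 0.00472) and was not called in yda at 0.35 (limma adjusted p = 0.12; 0.53 and called without C24 replicate 3, limma adjusted p = 0.0236), with each array's level between 72.9 and 186. The part of root cells in these differences was not tested.

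The 3 members of secreted defence protein families all met the thresholds with either control, and none of their mutant arrays overlapped a control array. AT3G05730, of the defensin-like peptide family, was the brightest member. Its intensities were 1254.4, 1373.1, 1265.3 and 1199.9 in NdelYDA, 4054.6, 3870.9 and 3907.6 in Ler, 4855.3, 4917.3 and 5240.3 in C24 and 10797.6, 13002.8, 10516.9 and 13513.3 in yda. Arrays within a group lay close together, C24 stood above Ler, and NdelYDA and yda lay on opposite sides of both. The means were 1273 ± 72.5 (SD, n = 4) in NdelYDA, 3944 ± 97.2 (SD, n = 3) in Ler, 5004 ± 207 (SD, n = 3) in C24 and 11958 ± 1520.3 (SD, n = 4) in yda, and the differences -1.62 and 1.25, or -1.96 and 1.59 exchanged. PR-1-LIKE, of the family of the pathogenesis-related protein PR-1, read 29.1, 8.7, 25.4 and 9.9 in NdelYDA, 55.2, 77.8 and 56.7 in Ler, 42.3, 87.1 and 51.5 in C24 and 192.1, 170.5, 137.0 and 147.5 in yda. Its control groups overlapped and differed by 0.09. The differences were -1.25 and 1.25, then -1.16 and 1.17. AT1G50060, of the same family, read 41.5, 89.1, 81.5 and 64.4 in NdelYDA, 220.1, 236.5 and 286.2 in Ler, 115.3, 257.3 and 273.1 in C24 and 394.7, 446.0, 395.1 and 478.8 in yda. C24 replicate 1 was the lowest control array, and the differences were -1.66 and 1.02, then -1.39 and 0.76.

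Among enzymes that use oxygen, AT5G19580 of the glyoxal oxidase family lay at 15.9 to 28.6 in NdelYDA, 118.1 to 156.4 in Ler, 46.8 to 120.1 in C24 and 189.0 to 197.7 in yda. No mutant array overlapped a control array, and yda minus Ler was 0.44, under the threshold. AT2G36690, of the 2-oxoglutarate-dependent dioxygenase family, lay at 130.4 to 190.2 in NdelYDA, 475.8 to 518.0 in Ler, 173.2 to 314.0 in C24 and 860.6 to 894.4 in yda. The yda arrays were above all others, while NdelYDA overlapped C24, with differences of -1.53 and 1.82, then -0.5 and 0.79. The several-gene probe set, left without a name, lay at 2.6 to 6.4 in NdelYDA, the bottom of the scale, against 182.8 to 213.9 in Ler. It was at 92.9 to 124.8 in C24 and 297.4 to 430.7 in yda, with no overlap between either mutant and either control.

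Of the 27 named members, 2 were grouped under signalling and 1 under hormone action. AT1G51850, of the leucine-rich repeat receptor kinase family, read 31.6, 45.3, 44.6 and 49.2 in NdelYDA, 92.5, 111.9 and 124.4 in Ler, 67.8, 62.2 and 47 in C24 and 378.9, 343.8, 373.4 and 361.9 in yda. The yda arrays stood well above all others, and NdelYDA overlapped C24 but not Ler. The differences were -1.1 and 2.35, and -0.35 and 1.61 exchanged. ATC, of the family of the flowering repressor TERMINAL FLOWER 1, was at 112.2 to 172.5 in NdelYDA, 241.2 to 338.3 in Ler, 124.8 to 215.6 in C24 and 264.4 to 305.6 in yda. Both yda and Ler were high and both NdelYDA and C24 low, and yda minus Ler was -0.02. GH3.3, which conjugates auxin to amino acids, lay at 254.2 to 324.1 in NdelYDA, 514.6 to 607.3 in Ler, 293.7 to 379.5 in C24 and 1100.4 to 1286.7 in yda. Its yda arrays were above every other array (1.74 over C24, 1.09 over Ler), and its NdelYDA arrays were below Ler (-0.85) but overlapped C24 (-0.2).

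In lipid metabolism, AT1G54020 of the GDSL lipase family was dim outside yda, at 2.4 to 28 in NdelYDA, 25.5 to 48 in Ler, 29.6 to 38.8 in C24 and 119.2 to 148.9 in yda. The NdelYDA arrays overlapped Ler, and -0.7 was the weakest difference that met the rule, whereas yda was 1.55 above C24 and 1.53 above Ler. The left-out GDSL lipase genes AT1G33811 and AT1G75880 had yda minus C24 of 2.06 and 2.54. A further gene of this family in the guard cell list, AT2G04570 (OSP1), was not a member: it rose in yda by 2.05 (SE 0.10, limma adjusted p = 3.83e-10), from 271 ± 45.1 to 1167 ± 44.6, and was at 287 ± 12.4 in NdelYDA against 335 ± 35.9 in Ler (log2 change -0.2, limma adjusted p = 0.149). AT1G21540, of the acyl-activating enzyme family, was near the floor at 4.8 to 7.5 in NdelYDA, 63.7 to 69.2 in Ler, 20.4 to 39.3 in C24 and 72.5 to 123.9 in yda. No mutant array overlapped a control array, and yda minus Ler was 0.54.

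No role is given for the other 10 named members, and 5 of them met the thresholds with either control. AT5G66985 read 72.5, 56.9, 65.1 and 63.8 in NdelYDA, 258.1, 205.0 and 312.3 in Ler, 518.7, 350.0 and 246.8 in C24 and 1174.3, 860.1, 1231.1 and 1039.9 in yda. The NdelYDA arrays were lowest and the yda arrays highest, with C24 spread widely between them. Its differences were -1.75 and 1.54, then -2.21 and 2.0. It was further from the other control than from its own in both mutants, as any member with C24 above Ler must be. AT1G04800 read 111.4, 145.2, 179.9 and 186.6 in NdelYDA, 418.1, 351.5 and 470.4 in Ler, 238.4, 384.6 and 310.3 in C24 and 1253.1, 1446.5, 1427.4 and 1028.3 in yda, with -1.34 and 2.01, then -0.93 and 1.6. Here too each mutant lay outside both controls, which overlapped. AT1G44760 was the most even of these. It read 180.4, 227.8, 237.3 and 198.7 in NdelYDA, 497.1, 447.7 and 401.8 in Ler, 432.1, 390.3 and 413.3 in C24 and 776.3, 936.1, 768.5 and 778.3 in yda, its controls differed by 0.12, and the differences were -1.04 and 0.95, then -0.92 and 0.84. AT3G45530 was dim, at 16.1 to 23.1 in NdelYDA, 31.9 to 71.8 in Ler, 42 to 95.6 in C24 and 129.5 to 149.7 in yda, with no overlap between mutant and control arrays. AT4G17240 was as dim and split in NdelYDA, with 6.1, 51.8, 4.3 and 64, so that replicates 2 and 4 reached the Ler range of 44 to 59.6. Its yda range of 111.3 to 215.5 lay above both controls.

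The other 5 met the thresholds in part or not at all. AT3G47295 had small but separate groups, at 431.6 to 475.9 in NdelYDA, 731.5 to 851.0 in Ler, 611.2 to 696.4 in C24 and 1010.5 to 1312.9 in yda; no mutant array overlapped a control array, and its exchanged differences were -0.47 and 0.52. AT2G39690 was also separate in all 4 comparisons, at 64.1 to 78.2 in NdelYDA, 101.4 to 149.0 in Ler, 110.4 to 119.6 in C24 and 216.1 to 244.4 in yda, with -0.59 and 0.76 exchanged. AT3G19430 was separate too, at 35.8 to 73.7 in NdelYDA, 179.0 to 246.9 in Ler, 104.0 to 247.7 in C24 and 252.3 to 342.1 in yda, with -1.27 and 0.51. Ler stood above every other group in AT1G11850 and AT3G13950. AT1G11850 lay at 34.6 to 101.9 in NdelYDA, 235.1 to 309.9 in Ler, 44.3 to 61.9 in C24 and 143.1 to 191.6 in yda. AT3G13950 lay at 77.8 to 111.4 in NdelYDA, 191.3 to 238.1 in Ler, 28.8 to 65.4 in C24 and 70.9 to 123.3 in yda. Set against the other control, NdelYDA was higher by 0.43 and 0.71, and yda was lower, at -0.63 and -1.01.

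**Figure D3:**
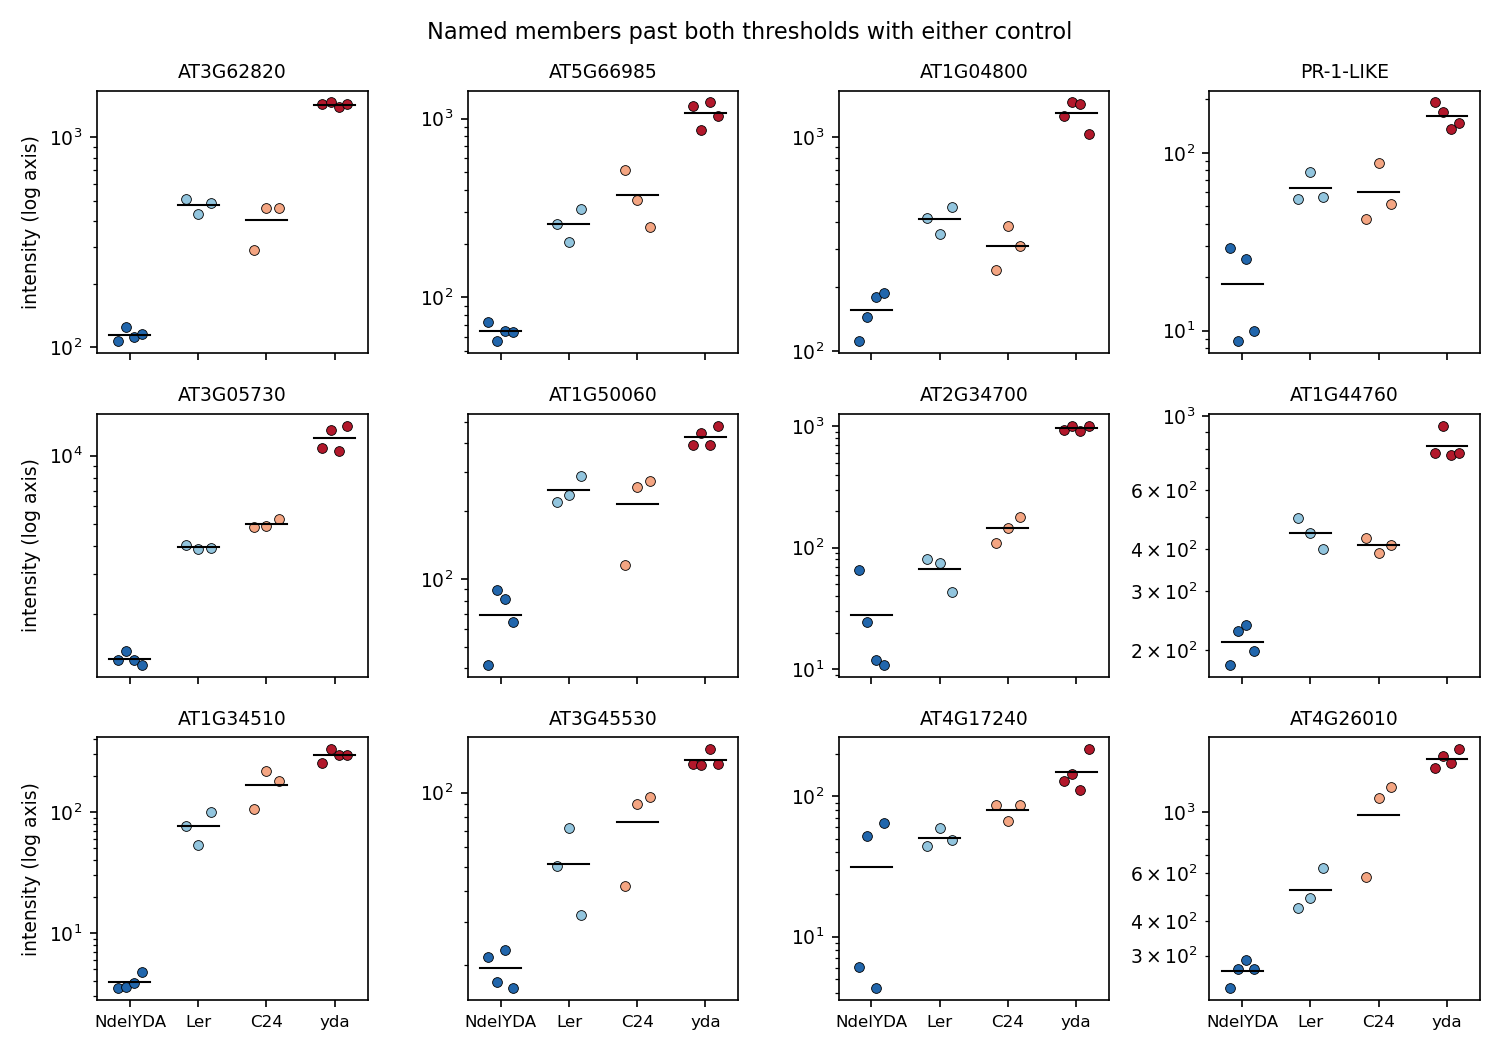
Intensity on each of the 14 arrays (points, log axis) with the group mean (line) for the 12 named members that met both thresholds with either control. NdelYDA was the lowest group and yda the highest in each panel; NdelYDA arrays overlapped Ler arrays in AT2G34700 and AT4G17240 and no other panel shows a mutant array within a control's range.

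The 18 unnamed probe sets had a median NdelYDA minus Ler of -1.36 (-2.36 to -0.74) and a median yda minus C24 of 0.98 (0.76 to 1.99), beside the -1.14 and 1.25 of the named members. In 15 of them the arrays did not overlap in both comparisons, and 7 met the thresholds with either control. Probe set 260546_at had the highest smaller change of all 46, with 165.1, 171.3, 180.4 and 152.1 in NdelYDA and 866.6, 900.6 and 1016.6 in Ler, and with 157.4, 220.2 and 275.2 in C24 and 938.4, 907.6, 904.7 and 828.8 in yda. Ler and yda were high and overlapped, NdelYDA and C24 were low and overlapped, and the exchanged differences were -0.32 and -0.05. Probe set 263285_at was a member through scattered values, at 247.4, 12.6, 393.9 and 450.1 in yda and 408.7, 51 and 32.7 in C24, and met the rule in 6 of the 14 runs with an array left out.

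Neighbouring genes were examined by the order of the gene table, a choice made after the members were known. Within 2 protein-coding genes of a named member, 38 probe sets of single genes were tested with limma, which the rule had not chosen. None was called lower in NdelYDA and higher in yda. In NdelYDA 9 fell and 5 rose (16.6% and 15.4% of all probe sets tested), and in yda 7 rose and 13 fell (19.1% and 24.4%). Of the 10 called in both mutants, 6 fell in both, 3 rose in both, and 1 was higher in NdelYDA and lower in yda. The shares of all probe sets called in both mutants, by direction, were not computed. These joint counts, and the lack of a neighbour with the members' pattern, are thus a description only. Beside PR-1-LIKE lie AT2G19980 and AT2G19970, of the same PR-1 family. AT2G19980 rose in yda from 21.6 ± 0.608 to 293 ± 39.7 (log2 change 3.03, or 2.05 with 64 added, limma adjusted p = 3.29e-09) and was at the bottom of the scale in both NdelYDA (2.6 to 4.5) and Ler (3.1 to 4.1). AT2G19970 fell in NdelYDA from 165 ± 11 to between 2 and 5.6, also the bottom of the scale (limma adjusted p = 1.74e-07). The size of that change is set by the pseudocount, at -3.21 with 16 added and -1.76 with 64, and in yda its change of 0.26 was not called (limma adjusted p = 0.471). Each neighbour was thus called on 1 side of the pattern of PR-1-LIKE. Around the receptor kinase gene AT1G51850, the genes AT1G51830, AT1G51840 and AT1G51860 fell in both mutants. Their log2 changes in NdelYDA were -1.62, -1.38 and -1.75, with the highest limma adjusted p at 7.84e-04. In yda the changes were -1.5, -1.23 and -1.54 (limma adjusted p of at most 0.00152), where AT1G51850 was 2.35 higher. AT4G25250, a pectin methylesterase inhibitor family gene next to AT4G25260, fell in NdelYDA by 1.37 (limma adjusted p = 1.63e-04) and in yda by 0.87 (limma adjusted p = 0.00494). EXPA4, an expansin gene beside AT2G39690, fell in both mutants as well, by 1.02 and 0.54 (limma adjusted p = 7.13e-05 and 0.0093), though not in yda without C24 replicate 2 (limma adjusted p = 0.0694). AT1G44770, beside AT1G44760, was the other that fell in both, by 0.33 and 0.41 (limma adjusted p = 0.0088 and 0.00131), without a call in NdelYDA when Ler replicate 3 was left out (limma adjusted p = 0.0704). On the other side of AT2G39690, BIK1, a receptor-like cytoplasmic kinase of immune signalling, rose in both, by 0.39 and 0.74 (limma adjusted p = 0.00143 and 2.32e-06). AT3G13940, beside AT3G13950, rose by 0.27 and 0.54 (limma adjusted p = 0.0292 and 1.47e-04) and AT3G19440, beside AT3G19430, by 0.39 and 0.4 (limma adjusted p = 0.0427 and 0.028), with calls in NdelYDA that were lost in 6 and 8 alternatives, and in yda that of AT3G19440 was lost in 5. AT3G15780 was called in the directions opposite to its neighbour AT3G15800, at 0.75 in NdelYDA and -0.72 in yda (limma adjusted p = 0.0109 and 0.0106), and was not called in yda without C24 replicate 1 (limma adjusted p = 0.0706). Set against C24 in place of Ler, NdelYDA differed by 0.07 for EXPA4, 0.36 for AT1G44770 and 0.06 for BIK1. Their NdelYDA calls thus depended on the Ler level. The other genes called in both mutants kept their direction in NdelYDA against C24. Against Ler, yda kept its direction for all genes called in both. Genes of 1 family can share probe sequence, and how far these probe sets read each other's transcripts was not tested.

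**Figure D4:**
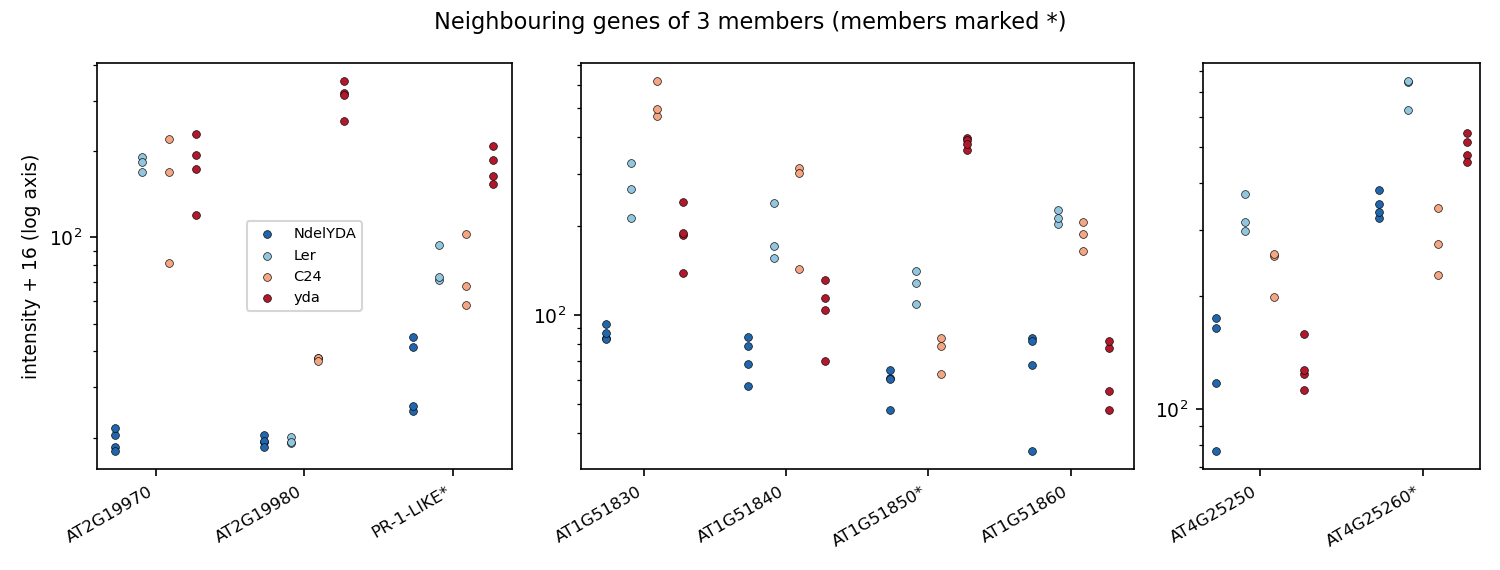
Intensity + 16 (log axis) on each array for 3 members (starred) and their neighbours in gene order, coloured by group. Beside AT1G51850, which was highest in yda, its 3 neighbours were lower in yda than in C24; beside PR-1-LIKE, AT2G19980 was high in yda alone and AT2G19970 low in NdelYDA alone.

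The likeness of members within groups was described by each array's deviation from its group mean. The rule used the means of these same arrays, so the likeness is not independent of the choice and carries no test. Over the 14 arrays, which each pair of members shares, the median correlation of these deviations was 0.11 over 1035 pairs of members, against 0.0034 over all pairs of the 16213 probe sets past the floor. Without C24 replicate 1 the median over member pairs was 0.0022, beside 0.004 over all pairs, so the higher value rested on that array. In C24 replicate 1 the members deviated by a median of -0.30, and by 0.099 and 0.14 in the other C24 arrays; in the other groups the medians lay between -0.065 and 0.058. It was the lowest C24 array for 30 of the 46 members, and for 38.3% of probe sets past the floor. A low value in C24 helps a probe set meet the rule.

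**Figure D5:**
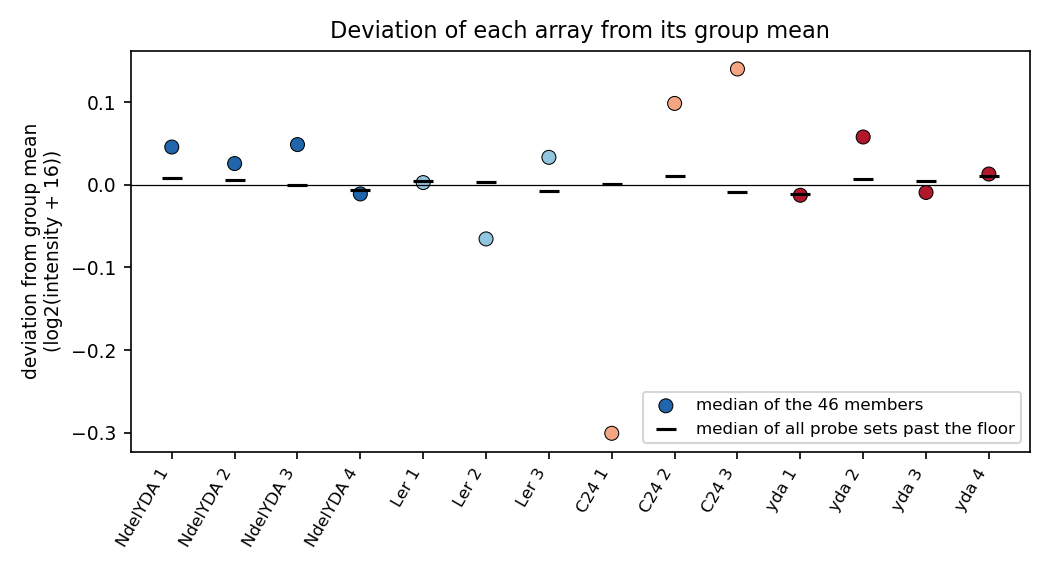
Median over the 46 members of each array's deviation from its group mean (points, log2(intensity + 16)), with the same median over all probe sets past the floor (dashes). C24 replicate 1 lies at -0.30, and the other 13 arrays between -0.07 and 0.14.

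Of 131 genes in 7 lists (stomatal lineage, guard cell, epidermis and cuticle, trichome, photosynthesis, root and cell division), the probe table gave 19 a probe set to themselves, and 12 could be tested outside the genes above, so each list rests on a small part. SPCH and FMA of the lineage list and AT1G22690, AT4G14480 and CHX20 of the guard cell list met the rule and were left out beforehand. The genes of these 2 lists tested here are those that did not meet it. Their counts thus cannot show how often stomatal genes follow the pattern. Among 3 stomatal lineage genes, none was called in NdelYDA and 1 was lower in yda, the mesophyll peptide STOMAGEN (-1.21, SE 0.15, limma adjusted p = 7.83e-06). AGL16, a MADS-box factor, changed by -0.1 and -0.0037 and ATBRXL2, a partner of the polarity factor BASL, by -0.18 and -0.31, none of them called. Among 3 guard cell genes, 2 rose and 1 fell in yda, and 1 fell in NdelYDA. AT2G04570 rose, as given above, and AT2G16630 (FOCL1), of the stomatal outer ledge, rose by 1.64 (limma adjusted p = 1.39e-06) without a call in NdelYDA (0.15). AT5G06970 (PATROL1), which moves a proton pump to the guard cell membrane, fell in both, by 0.46 and 0.26 (limma adjusted p = 1.13e-04 and 0.00911). Whether these effects differ between the mutants was not tested. By limma 32% of probe sets were called in NdelYDA and 43.4% in yda. Of the cell division genes, AUR1, a mitotic kinase, fell in both (by 0.27 and 0.55) and AUR2 in NdelYDA (by 0.36, limma adjusted p = 0.0371), a call lost in 8 alternatives, among them without Ler replicate 2 (limma adjusted p = 0.141). In yda AUR2 was called when yda replicate 4 was left out (-0.34, limma adjusted p = 0.0406) and not otherwise. Of the photosynthesis genes, LHCB4.1 fell in yda by 0.18 (limma adjusted p = 0.0326), which was lost in 7 alternatives, among them arrays scaled to the same median (limma adjusted p = 0.215), and RCA was not called. The trichome gene SIM was called in neither (-0.5 and -0.3), but in NdelYDA in 6 alternatives, among them without Ler replicate 1 (-0.62, limma adjusted p = 0.0444), and in yda without C24 replicate 3 (-0.50, limma adjusted p = 0.0471).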

How the data were processed

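The deposited table holds an intensity for each of 22810 probe sets on 14 arrays, linear by its values. With 2% of probe sets trimmed at each end, every array's mean was 500, as after a global scaling to 500. The software is not given in the sources used here, and no detection calls were used. The number of arrays limits the precision.

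The 64 array controls were left out. Of the other probe sets, 13513 had 1 gene in the probe table, 503 several and 8730 none; 13436 of the 13513 matched a locus of the TAIR10.1 gene table, used for names and gene order only. Values were taken as log2(intensity + 16), which understates changes of dim genes. Genes the rule had not chosen were tested with limma 3.58.1 in R 4.3.3: 4 group means over all 14 arrays, trended moderated variances, two-sided, Benjamini-Hochberg adjustment over 17210 probe sets past the 30th percentile of 3 or more arrays, with a call at an adjusted p under 0.05. The scripts were tested on simulated data. P-values measure the spread between these samples, which in the controls may be partly technical.

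The members and gene lists were chosen with earlier results of these data known. All named members are described, as the rule for naming asked for all where they are 40 or fewer. The promoter motifs planned were not analysed here. Alternatives covered the pseudocount, scaling, floor, threshold, medians, exchanged controls, arrays left out and a replicate block.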

Additional observations from a re-analysis of the deposited data

Results flagged for a closer look

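In 4 of the 92 sets of 4 mutant arrays examined (46 members in 2 mutants), 1 array lay far from the other 3 by Dixon's criterion on the gap to the nearest array as a share of the range, where chance alone marks about 1 in 20. AT1G21540 was at 4.8 in NdelYDA replicate 4 against 7.4 to 7.5 in the others, all at the bottom of the scale. AT1G44760 reached 936.1 in yda replicate 2 against 768.5 to 778.3. AT3G45530 reached 149.7 in yda replicate 3 against 129.5 to 131.0. The unnamed probe set 266271_at was at 99.0 in NdelYDA replicate 3 against 87.6 to 89.5. In each case the array stayed on the same side of every array of the control that the rule used.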

How the results depend on the processing

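The number of members depended on the pseudocount and the threshold. With a pseudocount of 64 there were 25 members, all among the 46 and 16 of them named, with 9 that met the thresholds with either control and 25 without overlap in both comparisons. At a change of 0.5 these counts were 100, 47 and 78, and at a change of 1 they were 21, 6 and 19, where the median of Ler minus C24 was 0.78. With NdelYDA set against C24 in place of Ler there were 96 members, 25 of them among the 46. With each array left out in turn, members numbered 38 to 50, those that met the thresholds with either control 15 to 22, those without overlap 33 to 44, and the median of Ler minus C24 ran from 0.28 to 0.53. The likeness within groups without C24 replicate 1, added after the data were seen, was 0.0022. Pseudocount 1, both other scalings, other floors, group medians and yda set against Ler left the counts run under them within 1.5 times. The members themselves changed more: of the 46, 36 were kept with group medians and 28 with yda set against Ler. The median of Ler minus C24, 0.31 as reported, was 0.51 with quantile normalization and 0.52 with group medians. Limma calls with an array left out ran from 4479 to 6021 for NdelYDA and from 6684 to 7343 for yda, with 1 and 4 stomatal and guard cell list genes each time. With a replicate block, 5110 and 7171 probe sets were called in place of 5503 and 7470; the same-numbered arrays share only a number, their deviations correlating by -0.16 to 0.08. SIM was called in NdelYDA in 6 alternatives and in yda without C24 replicate 3, AUR2 in yda without yda replicate 4, EXPA7 in yda without C24 replicate 3 (0.53), and EXPA4 was not called in yda without C24 replicate 2 (-0.34); the cause was not tested. A low signal in NdelYDA limits the size of the smallest levels.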
